A study of Mus musculus with 24 samples.

Results

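The 9 genes Tet1, Tet2, Tet3, Mbd1, Mbd2, Mbd3, Mbd4, Mbd5 and Mbd6 encode the TET enzymes (3 genes) and proteins with a methyl-CpG binding domain (6 genes). They were taken by gene symbol, and all 9 were found among the 24972 genes of each deposited table. RNA of the medial prefrontal cortex (mPFC) was sequenced from 24 mouse offspring at postnatal day (P)21, with 6 libraries each of male MO, male SAL, female MO and female SAL. MO offspring came from dams given 10 mg/kg morphine sulfate under the skin once a day, and SAL offspring came from dams given the same volume of saline. Dosing of the dams began before mating, with smaller doses on the first days, and went on through gestation and lactation until P21, and the offspring themselves were not injected. All 4 groups were labelled WT and were B6D2F1/J hybrids (dams C57BL/6J, sires DBA/2J), so the parents' strains were the same in MO and SAL. The study took 1 offspring of a sex from a litter, and small litters had been merged after birth. After the merging 6 SAL dams had litters, so the male SAL and female SAL mice came from the same litters. Males and females of MO also shared litters, at least in part. The labels do not say which mice are littermates.

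Methylation of cytosine in CG pairs (CpG) is read by some proteins of the MBD family and removed step by step after oxidation by the TET family. TET enzymes turn methylcytosine into hydroxymethylcytosine and further oxidised forms, using iron and 2-oxoglutarate, and base excision repair then replaces the oxidised base. Hydroxymethylcytosine is abundant in neurons of the maturing brain, and some MBD proteins link methylated DNA to complexes that act on chromatin.

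Each gene was measured as the authors' normalized count, a signal scaled so that libraries of 1 table can be compared. The male and female tables were scaled apart, so levels of males were not tested against those of females. The commonest lowest value of a library gave the worth of about 1 read, between 0.782 and 1.176 normalized counts, and from it an estimated 13.5 M to 20.1 M reads per library (M, mega). On this estimate a member was covered by a mean of 83.2 to 1451 reads per group. The column names of 11 libraries end in combined (2 of male MO, 1 of male SAL, 4 of female MO and 4 of female SAL), with no statement of what had been combined. The mPFC label was held against marker lists, and the summed level of 8 neuron genes was 143730 to 169985 normalized counts in every library. PFC1, a female MO library, stood apart with the highest sum of all 24 libraries for 5 genes of the oligodendrocyte lineage, at 237083 normalized counts, against 24681 to 107725 in male MO, male SAL and female SAL libraries. It was also the highest of all 24 for the astrocyte, microglia, endothelium, blood and striatum lists, with a striatum sum of 4456 against 1021 to 3408 in male MO, male SAL and female SAL libraries. PFC3, also female MO, had sums of 133822 for the oligodendrocyte lineage, 20748 for astrocytes and 4169 for endothelium. Each of these lay above every library of the other groups, and PFC3 was kept in the values given without PFC1. The female fold changes of the members, their main correlations and the marker lists are also given without PFC1. The most like genes and the lists of enzymes and partners are given only with it.

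The start regions of the genes are shown first, because some of the proteins act on CpG and the members differ in how much CpG lies there. RefSeq start sites on GRCm38.p6 were at hand for 7 of the 9 members (9 start sites), and those of Mbd1 and Mbd2 were not used here. Over the 250 bases before a start, 32851 start sites of all genes had a median of 6 CpG, with an upper quartile of 16. The members' start sites had 4 to 51 CpG, and 8 of the 9 lay above that median. Tet2 (chromosome 3, 133544391 to 133544640, minus strand) had 51 CpG in 250 bases and a GC content of 83.6%, and 0.067% of all start sites had as many. In GENCODE vM21 this stretch lies inside the span of Tet2, whose 5′ end is at 133545139, but in no exon. Within it the 10 letters GAGGGAGCGA, chosen after the sequence was seen, recurred 5 times, each 42 bases after the last, and 0.17% of the 250-base windows of all start sites held these letters on either strand. Mbd5 (chromosome 2, 48949277 to 48949507, plus strand, next to an exon of Orc4 on the other strand) and Mbd3 (chromosome 10, 80399551 to 80399781, minus strand) are shown beside it, as the member whose level moved with that of Tet2 and the member with the highest level per length. Each had 13 CpG in the 231 bases that lie outside annotated exons. Mbd5 has another start site, at 49245900, with 4 CpG in 250 bases and a GC content of 42.8%. It is not shown, because those bases lie in an exon of Mbd5. The sequences run 5′ to 3′ toward the RefSeq start site, with CpG in capitals.
Tet2: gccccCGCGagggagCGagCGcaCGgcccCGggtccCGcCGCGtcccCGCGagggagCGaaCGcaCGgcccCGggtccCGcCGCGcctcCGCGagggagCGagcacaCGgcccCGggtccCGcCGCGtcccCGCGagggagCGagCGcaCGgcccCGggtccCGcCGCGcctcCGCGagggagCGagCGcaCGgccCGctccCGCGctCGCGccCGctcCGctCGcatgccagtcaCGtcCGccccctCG
Mbd5: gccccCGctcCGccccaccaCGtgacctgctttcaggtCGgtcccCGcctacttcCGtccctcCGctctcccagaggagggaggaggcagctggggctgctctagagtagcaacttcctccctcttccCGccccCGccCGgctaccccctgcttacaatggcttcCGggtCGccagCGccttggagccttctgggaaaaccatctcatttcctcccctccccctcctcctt
Mbd3: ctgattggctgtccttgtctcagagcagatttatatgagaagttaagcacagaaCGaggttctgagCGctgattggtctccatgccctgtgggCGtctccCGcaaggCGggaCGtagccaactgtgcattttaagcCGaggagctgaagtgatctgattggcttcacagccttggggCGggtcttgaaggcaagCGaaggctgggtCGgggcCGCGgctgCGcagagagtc
These letters describe the reference genome, and methylation at these sites was not measured in these libraries.

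In the annotation of GRCm38, Tet1 spans chromosome 10, 62804570 to 62908996 (minus strand, 13 exons in its principal transcript), Tet2 chromosome 3, 133463679 to 133545139 (minus strand, 11 exons), and Tet3 chromosome 6, 83362373 to 83459084 (minus strand, 12 exons). Mbd3 spans chromosome 10, 80392539 to 80399550 (minus strand, 7 exons), and Mbd6 lies on the same chromosome at 127281956 to 127289018 (minus strand, 13 exons). Mbd4 spans chromosome 6, 115840697 to 115853371 (minus strand, 8 exons), and Mbd5 chromosome 2, 48949508 to 49325405 (plus strand, 10 exons).

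Levels of the members could be set against each other only per length, as normalized counts per kilobase of the principal GENCODE transcript. On this scale Mbd3 was the highest in every library. Mbd3, a subunit of the NuRD chromatin remodelling complex that binds methylated DNA poorly in mammals, had a mean of 844 normalized counts per kilobase in male MO and 797 in male SAL, and of 873 in female MO and 821 in female SAL. Next came Mbd2, which binds methylated CpG and forms its own NuRD complex, at 264 in male MO and 240 in male SAL, and at 262 in female MO and 245 in female SAL. Mbd3 was above Mbd2 and Mbd2 above Tet3 in 6 of 6 libraries of every group, and the ranges did not overlap.

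Tet3, a TET enzyme with a CXXC DNA-binding domain, had 170 normalized counts per kilobase in male MO and 186 in male SAL, and 157 in female MO and 160 in female SAL. Mbd1, which binds methylated CpG and works with the histone methyltransferase SETDB1, followed at 152 in male MO and 149 in male SAL, and at 145 in female MO and 139 in female SAL. The ranges of Tet3 and Mbd1 overlapped in all 4 groups. The place of Tet3 also depended on the transcript, since its principal form has 5944 bases and its longest 10904 bases. With the longest form its mean was 85.8 to 101 per kilobase over the 4 groups, which put it below Mbd1 and overlapping Mbd5.

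Mbd5, whose loss in humans causes a neurodevelopmental disorder, had 93.9 normalized counts per kilobase in male MO and 94.4 in male SAL, and 78.1 in female MO and 84.5 in female SAL. The 4 lowest genes were Mbd6, Tet2, Mbd4 and Tet1, with group means between 19.7 and 34.3 per kilobase. Mbd6 is a relative of Mbd5, Mbd4 is a DNA glycosylase that repairs mismatches at CpG, Tet1 carries a CXXC domain and Tet2 lacks one. Neighbours in that order overlapped in every group. Tet3 was thus the highest TET gene per length, above both Tet1 and Tet2 in every library of every group on the principal transcripts.

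**Figure D1:**
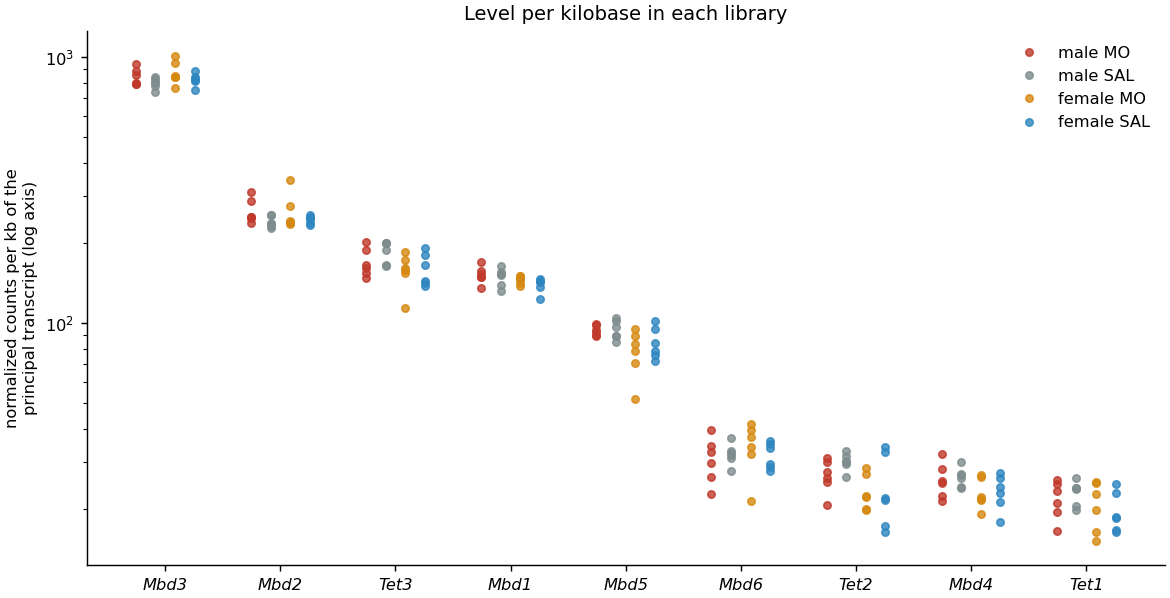
Normalized counts per kilobase of the principal transcript (y axis, log scale) for each of the 9 genes (x axis, ordered by level), with 1 point per library and 6 libraries per group. Mbd3 lies above all other members, and Mbd6, Tet2, Mbd4 and Tet1 form a low set whose points overlap.

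For the TET enzymes, the question of the MO and SAL comparison is whether the offspring of morphine-treated dams had other levels of the genes that start DNA demethylation. In males the estimates of all 3 TET genes were below 0 and none passed the test. Tet1 had a lowest value of 237, a median of 319 and a highest of 369 normalized counts in male MO, against 285, 343 and 375 in male SAL. The groups overlapped, and 2 of the 6 MO libraries lay below the lowest SAL library. The log2 fold change on log2(normalized count + 1) was -0.09 (SE 0.10, 95% interval -0.30 to 0.12, exact permutation test, p = 0.487).

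Tet2 had a lowest value of 189, a median of 247 and a highest of 286 in male MO, against 243, 276 and 303 in male SAL. Here 3 of the 6 MO libraries lay below every SAL library and 5 of 6 lay below the SAL mean. This was a log2 fold change of -0.18 (SE 0.09, 95% interval -0.36 to 0.01, exact permutation test, p = 0.0866).

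Tet3 had a lowest value of 880, a median of 971 and a highest of 1202 in male MO, against 970, 1150 and 1191 in male SAL. Of the 6 MO libraries, 3 lay below every SAL library and 1, PFC11, above every one. On the same scale the difference was -0.13 (SE 0.08, 95% interval -0.29 to 0.03, exact permutation test, p = 0.173).

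In females the estimates of the TET genes lay on both sides of 0. Tet1 ran from 219 through a median of 306 to 363 normalized counts in female MO, against 236, 268 and 357 in female SAL, with a log2 fold change of 0.07 (95% interval -0.24 to 0.37, exact permutation test, p = 0.699). Tet2 ran from 182 through 204 to 262 in female MO, against 151, 200 and 314 in female SAL, with a log2 fold change of 0.00035 (95% interval -0.38 to 0.38, exact permutation test, p = 0.996). Tet3 ran from 678 through 949 to 1096 in female MO, against 816, 918 and 1136 in female SAL, with a log2 fold change of -0.02 (95% interval -0.27 to 0.22, exact permutation test, p = 0.848). All 3 genes overlapped widely between the groups, and the lowest female MO value of each was that of PFC1. Without PFC1 the log2 fold change was 0.15 for Tet1, 0.04 for Tet2 and 0.06 for Tet3. The difference of the MO effect between males and females was -0.15 for Tet1, -0.18 for Tet2 and -0.11 for Tet3 on the log2 scale, and the adjusted p of each was 1.00 in the limma interaction.

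**Figure D2:**
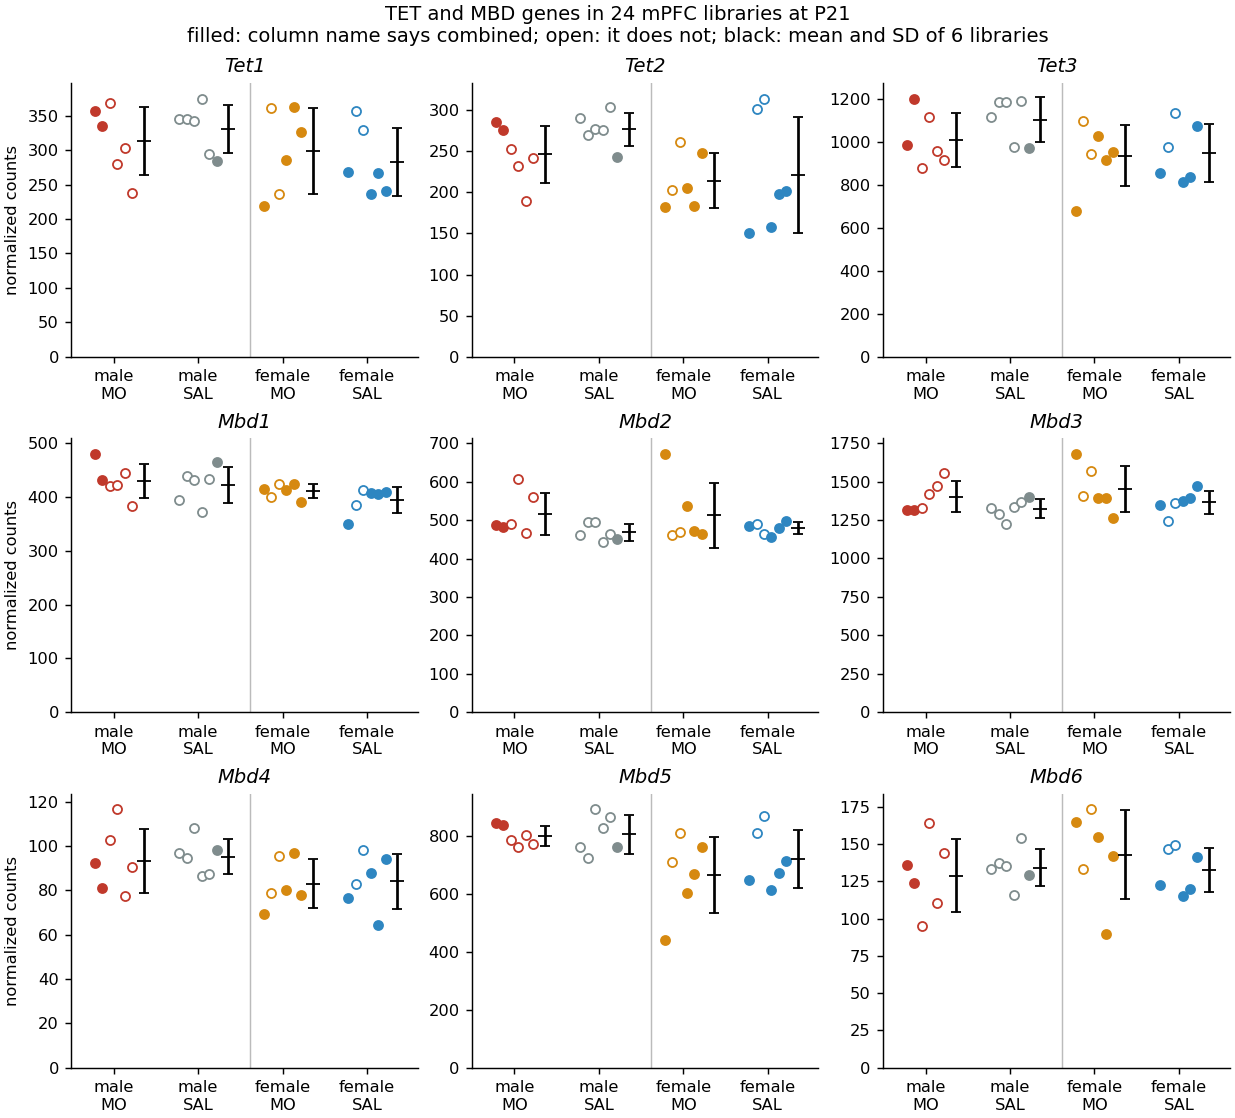
Normalized counts (y axis, from 0) of each gene in every library by group (x axis), with filled points for libraries whose column name says combined, open points for the others, and black marks for the mean and SD of 6 libraries. MO and SAL points overlap in every panel, and the single high Mbd2 point and the lowest Tet1, Tet3 and Mbd5 points of female MO are PFC1.

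Among the MBD genes, Mbd1, Mbd2 and Mbd3 had estimates above 0 in both tables, and none of them passed the test. Mbd2 had a lowest value of 465, a median of 489 and a highest of 607 normalized counts in male MO, against 443, 462 and 497 in male SAL. In males 5 of 6 MO libraries exceeded the mean of SAL and 2 lay above every SAL library. The log2 fold change in males was 0.13 (SE 0.07, 95% interval -0.0041 to 0.27, exact permutation test, p = 0.0736).

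In females Mbd2 ran from 461 through 470 to 672 in MO, against 457, 482 and 498 in SAL. The MO median lay below the SAL median, and 2 of the 6 MO libraries lay above every SAL library. The log2 fold change in females was 0.08 (SE 0.09, 95% interval -0.10 to 0.27, exact permutation test, p = 0.463). The highest value, 672, was that of PFC1, and without it the log2 fold change was 0.0034. Over both sexes the log2 fold change of Mbd2 was 0.11 (95% interval -0.0024 to 0.22, permutation test within sex, p = 0.0540), and without PFC1 it was 0.07.

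Mbd3 ran from 1318 through 1375 to 1558 in male MO, against 1222, 1334 and 1399 in male SAL, and from 1265 through 1401 to 1680 in female MO, against 1247, 1365 and 1470 in female SAL. In males 4 of the 6 MO libraries exceeded the mean of SAL, and in females 5 of the 6 did. The log2 fold change was 0.08 in males (95% interval -0.03 to 0.19, exact permutation test, p = 0.136) and 0.08 in females (95% interval -0.07 to 0.23, exact permutation test, p = 0.247). The highest female value, 1680, was that of PFC1, and without it the female estimate was 0.04. Over both sexes it was 0.08 (95% interval -0.0037 to 0.17, permutation test within sex, p = 0.0549), and 0.06 without PFC1.

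The other MBD genes lay closer to 0 or had wider intervals. Mbd1 averaged 431 ± 31.7 normalized counts in male MO and 423 ± 33.7 in male SAL, and 412 ± 13.8 in female MO and 395 ± 24.3 in female SAL (SD, n = 6 each). The female MO libraries of Mbd1 lay close together, and 0.835% of genes of like level had a smaller coefficient of variation in that group. Of the 6, 4 lay above every female SAL library, and the log2 fold change was 0.06 (95% interval -0.07 to 0.19, exact permutation test, p = 0.182), and 0.06 without PFC1. Mbd4, the gene with the fewest reads, averaged 93.4 ± 14.4 in male MO and 95.3 ± 7.94 in male SAL, and 83.1 ± 10.9 in female MO and 84.0 ± 12.4 in female SAL (SD, n = 6 each). Its log2 fold change was -0.04 in males and -0.01 in females, where it was 0.04 without PFC1.

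Mbd5 averaged 803 ± 34.2 in male MO and 807 ± 66.2 in male SAL (SD, n = 6 each), with a log2 fold change of -0.0046 and an interval of -0.12 to 0.11, among the narrowest of the 9 genes. In females it averaged 667 ± 131 in MO and 722 ± 99.4 in SAL (SD, n = 6 each), with a log2 fold change of -0.13 (95% interval -0.41 to 0.15, exact permutation test, p = 0.439). The lowest female value, 443, was again PFC1, and without it the estimate was -0.016. Mbd6 averaged 129 ± 24.8 in male MO and 134 ± 12.4 in male SAL, and 143 ± 30.0 in female MO and 133 ± 14.9 in female SAL (SD, n = 6 each). Its log2 fold change was -0.07 in males and 0.08 in females (0.04 without PFC1), and the groups overlapped in both.

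Over all genes tested with limma, 0% passed an adjusted p of 0.05 in males (0 of 16662), females (0 of 16717), both sexes together (0 of 17303) and in the interaction (0 of 17303). At an unadjusted p of 0.05 the share was 2.85% in males, 2.93% in females, 4.72% over both sexes and 2.1% in the interaction. Of the 9 members, 0 passed either criterion in each of these 4 comparisons, a count that such shares do not set apart from the other genes. The smallest adjusted p of a member was 1.00 in males and 0.918 in females, and with the sexes together 0.847 (limma). Without PFC11, a male MO library, 3 members (Tet2, Tet3 and Mbd2) had an unadjusted limma p under 0.05 in males, and 0 an adjusted one. In that fit 4.13% of the 16580 genes tested had an unadjusted p under 0.05. The median log2 fold change of the members was -0.04 in males and 0.06 in females, against -0.0014 and -0.0092 over all genes with a mean level above 50. The 95% intervals of the members lay between -0.36 and 0.27 in males and between -0.41 and 0.39 in females.

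**Figure D3:**
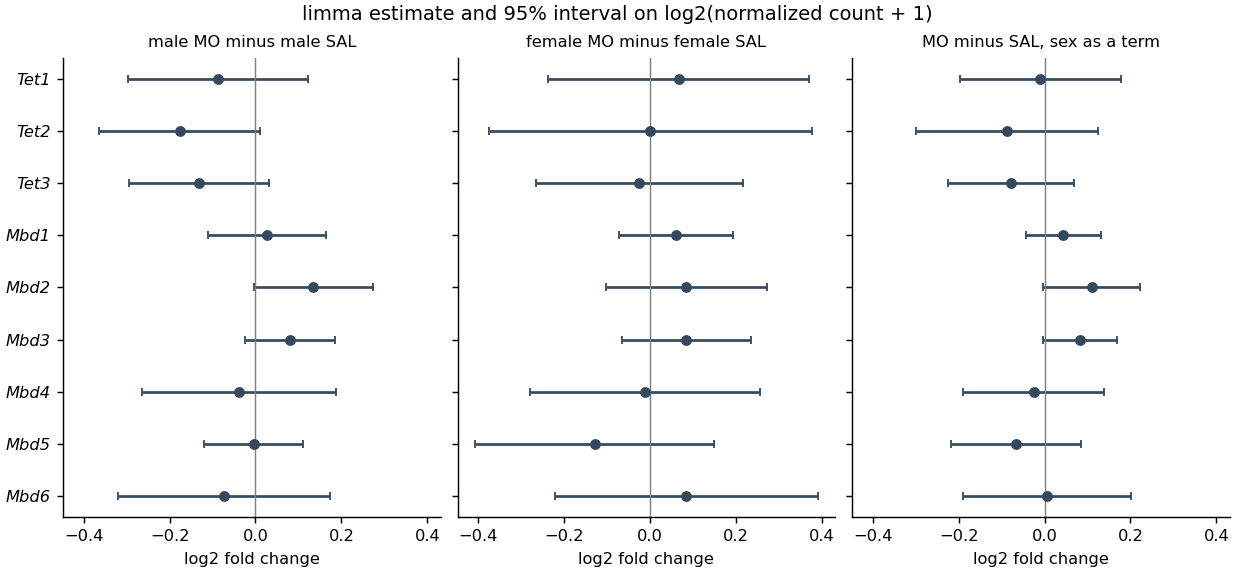
Log2 fold change of MO against SAL (x axis) of each gene (y axis) for males, for females and for both sexes together, as limma estimates (points) with 95% intervals (bars) on log2(normalized count + 1). Every interval holds 0, and those of Mbd2 in males and of Mbd2 and Mbd3 over both sexes reach just below it, to -0.0041, -0.0024 and -0.0037.

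The members differed in how far the libraries of a group, each a separate mouse, lay apart. The coefficient of variation within a group was 3.28% to 31.9%, with a median of 10.99%, over the 36 pairs of gene and group. Among genes of like level, the median member stood at the 77.7th percentile of this spread in male MO and the 35.9th in male SAL, and at the 72.5th in female MO and the 50.8th in female SAL. Tet2 in female SAL was the widest, at 31.9% against 6.72% from counting, and 98.2% of genes of like level varied less in that group. The same gene varied by 7.34% in male SAL. Mbd2 was among the tightest in female SAL at 3.28%, below its counting error of 4.57%.

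The Tet2 level in females was next set against the column suffix. In the 8 female libraries marked combined Tet2 averaged 191 ± 30.5 normalized counts (SD, n = 8), and in the 4 others 270 ± 49.7 (SD, n = 4). The log2 difference was -0.18 in MO and -0.80 in SAL, with a mean of -0.49 (exact permutation test, p = 0.0178, 0.280 after Benjamini-Hochberg adjustment over 18 tests). Mbd5 likewise averaged 642 ± 95.5 in the combined female libraries (SD, n = 8) and 800.4 ± 66.1 in the others (SD, n = 4), with a difference of -0.32 in MO and -0.34 in SAL and a mean of -0.33 (exact permutation test, p = 0.0311, adjusted 0.280). Without PFC1 the mean was -0.47 for Tet2 and -0.25 for Mbd5. The other female means ran from -0.22 (Tet3) to 0.10 (Mbd2), and no member passed after adjustment. In males, with 3 combined libraries, the difference for Tet2 was 0.30 in MO and -0.22 in SAL, and for Mbd5 it was 0.11 in MO and -0.09 in SAL. What the suffix stands for is not known. It is on PFC1 to PFC11 and on none of PFC12 to PFC24, so it cannot be told apart from library number. Its part in these levels was not tested further.

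MO and SAL were therefore also compared within each kind of library. For Tet1 the MO minus SAL difference was 0.22 in the combined female libraries (4 against 4) and -0.23 in the others (2 against 2). In males it was 0.28 in the combined libraries (2 against 1) and -0.21 in the others (4 against 5). Tet2 was alike, with 0.21 and -0.41 in females and 0.21 and -0.31 in males. Tet3 had 0.17 and -0.23 in males, and -0.01 and -0.05 in females. Mbd2 had 0.14 in the combined female libraries and -0.03 in the others, and 0.11 and 0.16 in males. Mbd3 had 0.03 and 0.19 in females, and -0.09 and 0.14 in males. Mbd4 had 0.01 and -0.06 in females, and -0.18 and 0.02 in males. Tet1, Tet2 and Mbd4 thus had opposite signs in the 2 kinds of library in both sexes, and Tet3 in males but not in females. In males every member but Mbd2 had opposite signs, and the combined male SAL side was the single library PFC9. These differences were not tested. Without PFC1 the value of the combined female libraries was 0.36 for Tet1, 0.26 for Tet2, 0.12 for Tet3, 0.03 for Mbd2, -0.05 for Mbd3 and 0.08 for Mbd4. With a term for the suffix, Tet2 in males was -0.19 and Mbd2 in males 0.15, both at an unadjusted p just under 0.05 and an adjusted p far above it.

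**Figure D4:**
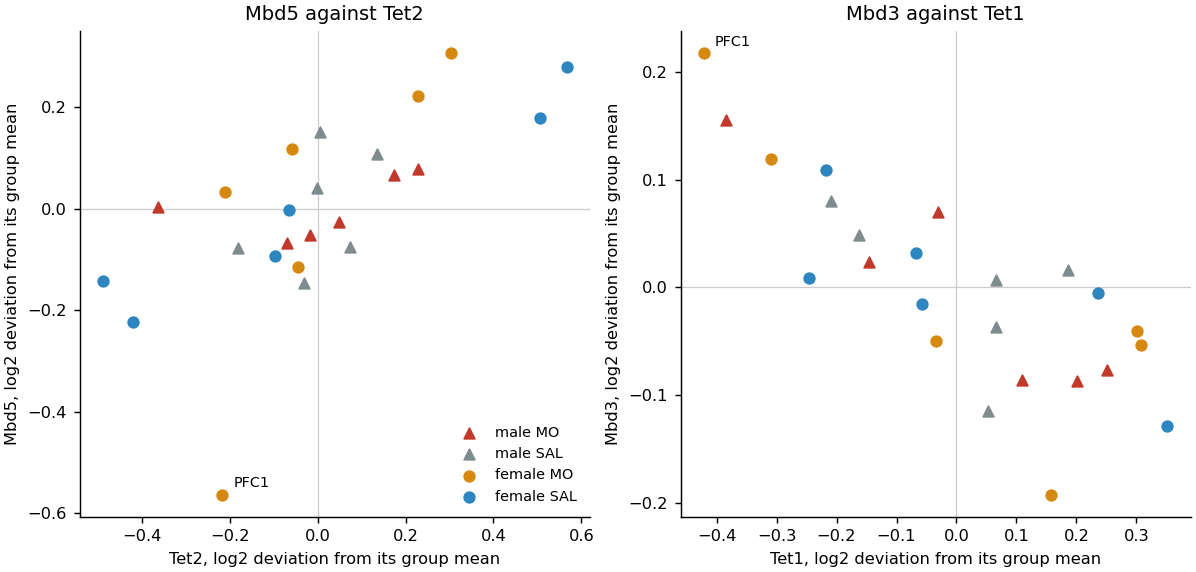
Deviation of Mbd5 from its group mean against that of Tet2 (left) and of Mbd3 against that of Tet1 (right), on the log2(normalized count + 1) scale, with 1 point per library, circles for females and triangles for males. Mbd5 tends to be high where Tet2 is high, and Mbd3 low where Tet1 is high. The labelled point is PFC1.

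The members did not move as 1 group from library to library. Of the 36 pairs of members, 25 had a correlation of the same sign in both tables once group means were removed, 0 were above 0.5 in both and 1 was below -0.5 in both. These correlations describe 12 libraries that share 1 normalization. The pair below -0.5 in both was Tet1 and Mbd3. It had Pearson's r = -0.80 and Spearman's rho = -0.85 in females (permutation p = 0.0048 and 0.0030, adjusted over 72 tests 0.116 and 0.109), and r = -0.82 and rho = -0.76 in males (permutation p = 0.0041 and 0.0115, adjusted 0.116 and 0.235). Without the 2 libraries farthest from the median, r was -0.66 in females and -0.62 in males, and without PFC1 it was -0.71 in females. Tet2 and Mbd5 had r = 0.74 and rho = 0.85 in females (permutation p = 0.00059 and 0.00091, adjusted 0.0425 and 0.0655), the only pair of the 72 tests with an adjusted p of r under 0.05. Without the 2 farthest libraries their r was 0.69, and without PFC1 it was 0.90. In males r was 0.39 and rho 0.57. Only group means were removed, and differences by column suffix were not. In female SAL the libraries without the suffix, PFC22 and PFC24, had Tet2 at 301 and 314 and Mbd5 at 811 and 870. These values lay above every combined library of that group. The part of the suffix in this pair was not tested.

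Members were next set beside markers of cell types, since a change in the mix of cells and a change of RNA per cell cannot be told apart in bulk tissue. Each list was taken as the mean of log2(normalized count + 1) of its genes, and 126 relations of 9 members, 7 lists and 2 tables were computed. The adjusted p of r was under 0.05 in 8 of them, 7 in females and 1 in males. Mbd5 in females ran against the lists of the oligodendrocyte lineage (r = -0.90, rho = -0.84, permutation p = 0.00073 and 0.0020, adjusted 0.0466 and 0.0607), microglia (r = -0.87, rho = -0.87, permutation p = 0.0010 and 0.00074, adjusted 0.0466 and 0.0466) and astrocytes (r = -0.88, rho = -0.81, permutation p = 0.0028 and 0.0036, adjusted 0.0477 and 0.0762). Without PFC1 these r were -0.82, -0.77 and -0.71, and without the 2 farthest libraries -0.81, -0.87 and -0.68. Mbd5 also ran with the neuron list (r = 0.87, rho = 0.81, permutation p = 0.0026 and 0.0024, adjusted 0.0477 and 0.0607), at 0.70 without the 2 farthest libraries and 0.68 without PFC1. The neuron relation depended on how the list was summed. With its values added before taking the log, r was 0.09, and without PFC1 it was -0.41.

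Tet1 and Tet2 ran against the microglia list in females, with r = -0.78 for each. For Tet1 rho was -0.73 (permutation p = 0.0024 and 0.0087, adjusted 0.0477 and 0.131), and for Tet2 it was -0.87 (permutation p = 0.00289 and 0.00175, adjusted 0.0477 and 0.0607). Without the 2 farthest libraries r was -0.62 for Tet1 and -0.81 for Tet2, and without PFC1 it was -0.69 and -0.85. Mbd2 in females ran with the endothelium list (r = 0.91, rho = 0.85, permutation p = 0.0011 and 0.00062, adjusted 0.0466 and 0.0466), at 0.78 without the 2 farthest libraries and 0.81 without PFC1. In males the one relation was that of Mbd4 with the oligodendrocyte lineage (r = 0.85, rho = 0.78, permutation p = 0.0030 and 0.0112, adjusted 0.0477 and 0.131), at 0.70 without the 2 farthest libraries. In females the same pair had r = -0.39 and rho = -0.40. The male counterparts of the female relations were weaker, with r = -0.31 for Mbd5 and the oligodendrocyte lineage, 0.10 for Tet2 and microglia, 0.19 for Tet1 and microglia and 0.05 for Mbd2 and endothelium. The difference between the tables was not tested. Differences by column suffix were not removed here. In female SAL the libraries without the suffix, PFC22 and PFC24, had the lowest summed microglia list, at 3418 and 4337. They also had the lowest oligodendrocyte list of that group, at 24681 and 33442. The part of the suffix in the female relations was not tested. No gene of the oligodendrocyte, microglia, astrocyte and endothelium lists was at 0 in any library. The summed microglia list ran from 4908 to 8939 normalized counts in female MO and from 3418 to 6677 in female SAL. In female MO against female SAL, the median log2 fold change was 0.28 for the oligodendrocyte lineage, 0.21 for astrocytes, 0.12 for microglia, 0.17 for endothelium, 0.16 for striatum and 0.78 for blood, with 5 of 5 genes of each list above 0. It was -0.11 for neurons, with 7 of 8 genes below 0. Without PFC1 the medians were 0.06 (oligodendrocyte lineage), 0.0055 (astrocytes), -0.0043 (microglia), 0.12 (endothelium), -0.05 (striatum), 0.54 (blood) and -0.06 (neurons). Genes at an unadjusted p under 0.05 in females were Pecam1 and Flt1 of endothelium, and 0 had an adjusted p under 0.05 (limma). In males the oligodendrocyte lineage also had 5 of 5 genes above 0, with a median of 0.23, and blood 4 of 5, with a median of 0.40. Of the blood genes in males, 1 was higher (Hba-a1, 0.67) and 1 lower (Hbb-bs, -3.10) at an unadjusted limma p of 0.05. Hbb-bs averaged 4.04 ± 9.88 in male MO and 40.7 ± 37.7 in male SAL (SD, n = 6 each, exact permutation test, p = 0.0606). Over both sexes 4 of 5 blood genes were higher at an unadjusted limma p of 0.05. The list median was 0.60 and its lowest estimate -1.02. The part of these lists in the members' levels was not tested.

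The genes most like each member were found among 11782 genes whose mean was 50 or more in each table, by the lower of the male and female r with group means removed. They describe 12 libraries per table. For Mbd5 they were Trrap, a scaffold of histone acetyltransferase complexes, with r = 0.97 in males and 0.99 in females, and the calcium channel gene Cacna1e, at 0.96 and 0.92. For Tet1 they were the histone methyltransferase gene Dot1l (0.92 in males and 0.86 in females) and Lrrc8b (0.83 and 0.93). For Tet2 they were Atp8b2 (0.87 and 0.88) and Cpeb4 (0.85 and 0.87), and for Tet3 the kinase gene Nuak1 (0.88 and 0.92) and the activity-regulated transcription factor Egr3 (0.88 and 0.91).

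The MBD genes had likes of their own. For Mbd3 they were Ubxn1 (0.94 in males and 0.86 in females) and the kinase gene Stk11 (0.89 and 0.86), and for Mbd2 Crat (0.83 and 0.84) and Etfrf1 (0.83 and 0.82). For Mbd6 they were Klf4 (0.85 and 0.76) and Mettl7a1 (0.78 and 0.71). Mbd4, with Dek (0.68 and 0.82) and Zfp33b (0.73 and 0.65), and Mbd1, with Reep6 (0.61 and 0.72) and Pak4 (0.66 and 0.60), had the loosest matches. No member was among the 2 most like genes of another.

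The enzymes and partners around the members were counted in lists drawn up by role, at an unadjusted p of 0.05 in limma. Of 6 genes that place or maintain methylation, 2 were higher in male MO at an unadjusted p of 0.05, Dnmt3b and Dnmt3l, and 0 were lower. Both were near the floor of the data, and the study reported both as raised in male MO from these same libraries. Dnmt3l, a catalytically inactive partner of the de novo methyltransferases, averaged 2.96 ± 1.16 normalized counts in male MO and 0.679 ± 0.596 in male SAL (SD, n = 6 each, log2 fold change 1.26, exact permutation test, p = 0.00433, limma adjusted p = 1.00). Dnmt3b averaged 6.64 ± 3.85 in male MO and 2.89 ± 1.12 in male SAL (SD, n = 6 each, exact permutation test, p = 0.0671). Of the 85-base stretches of Dnmt3b, 5.39% also occur in Dnmt3c. The abundant enzymes did not move past the test. The maintenance enzyme gene Dnmt1 had a log2 fold change of -0.0088 in males and -0.15 in females, and the de novo enzyme gene Dnmt3a one of 0.03 in males and 0.08 in females. By quantitative PCR on the same RNA samples, the study reported Dnmt3a as raised in MO, as a main effect over both sexes. In the sequencing the log2 fold change of Dnmt3a over both sexes was 0.06 (limma interval -0.08 to 0.19, limma adjusted p = 0.876). This interval holds 0 and also values above it. The difference between the 2 methods was not tested.

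Among 8 genes listed as other readers of methylated DNA or as holding an MBD-like domain, 1 was higher in male MO at an unadjusted p of 0.05 and 0 were lower. This was Setdb2, a histone methyltransferase gene whose product holds an MBD-like domain, at 54.5 ± 6.72 normalized counts in male MO and 38.8 ± 3.31 in male SAL (SD, n = 6 each). All 6 MO libraries lay above every SAL library, with a log2 fold change of 0.47 (exact permutation test, p = 0.00216, limma adjusted p = 1.00). How many of all genes had no such overlap was not counted. In females Setdb2 averaged 42.9 ± 8.23 in MO and 42.7 ± 9.504 in SAL (SD, n = 6 each, log2 fold change 0.01). The interaction had an unadjusted limma p of 0.0344 and an adjusted p of 1.00.

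Among 12 genes of the later steps of demethylation, 0 were higher and 2 lower in male MO at an unadjusted limma p of 0.05. Tdg, the glycosylase that cuts out the oxidised bases TET enzymes make, averaged 93.4 ± 23.8 in male MO and 115 ± 13.2 in male SAL, and 88.6 ± 21.5 in female MO and 106 ± 18.5 in female SAL (SD, n = 6 each). In each sex 3 of the 6 MO libraries lay below every SAL library. The log2 fold change was -0.33 in males (exact permutation test, p = 0.0866) and -0.28 in females (exact permutation test, p = 0.145). Over both sexes it was -0.30 (95% interval -0.53 to -0.07, limma adjusted p = 0.847). Tdg is uncertain as a single gene, since 26.2% of its 85-base stretches are shared with copies such as Tdg-ps and Gm9855. Neil2, another glycosylase gene, averaged 12.4 ± 3.72 in male MO and 18.2 ± 4.92 in male SAL (SD, n = 6 each, exact permutation test, p = 0.0519).

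Of 12 TET partners and genes of cofactor supply, 1 was higher in male MO at an unadjusted p of 0.05, and 0 were lower. Idh2, which makes 2-oxoglutarate in mitochondria, averaged 561 ± 30.9 in male MO and 500 ± 28.7 in male SAL, and 621 ± 151 in female MO and 538 ± 83.3 in female SAL (SD, n = 6 each). In males 5 of 6 MO libraries lay above every SAL library (log2 fold change 0.17, exact permutation test, p = 0.00866, limma adjusted p = 1.00). Ogt, the glycosyltransferase that binds TET enzymes, had a log2 fold change of 0.06 in males and -0.11 in females. Of 13 NuRD genes 0 passed limma in either direction in males or females, and Chd4, the main remodelling ATPase, had 0.02 and -0.08. Of 8 PR-DUB genes, the deubiquitinase complex that Mbd5 and Mbd6 bind, 0 passed limma as well. Of 5 other MBD partners 4 were tested, and Fadd, an adaptor that binds Mbd4, was higher in male MO at an unadjusted p of 0.05. Fadd averaged 45.8 ± 14.74 in male MO and 31.3 ± 3.85 in male SAL (SD, n = 6 each, log2 fold change 0.49, exact permutation test, p = 0.0108, limma adjusted p = 1.00). Over both sexes Dnmt3b, Dnmt3l, Setdb2, Idh2 and Fadd were higher and Tdg lower at an unadjusted p of 0.05, each with an adjusted p of 0.847 (limma). In females 0 genes of these 7 lists passed an unadjusted limma p of 0.05, and in neither sex did any pass after adjustment over all genes. The exact permutation test, unadjusted, gave other genes under 0.05, named here after their values were seen. It was run only on the members and the listed genes, so the share of all genes under 0.05 in it is not known. In males Polb had a log2 difference of 0.09 (exact permutation test, p = 0.0368) and Gatad2a of -0.08 (exact permutation test, p = 0.0303). In females Idh3a had one of -0.13 (exact permutation test, p = 0.0303) and Chd3 of 0.13 (exact permutation test, p = 0.0455).

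**Figure D5:**
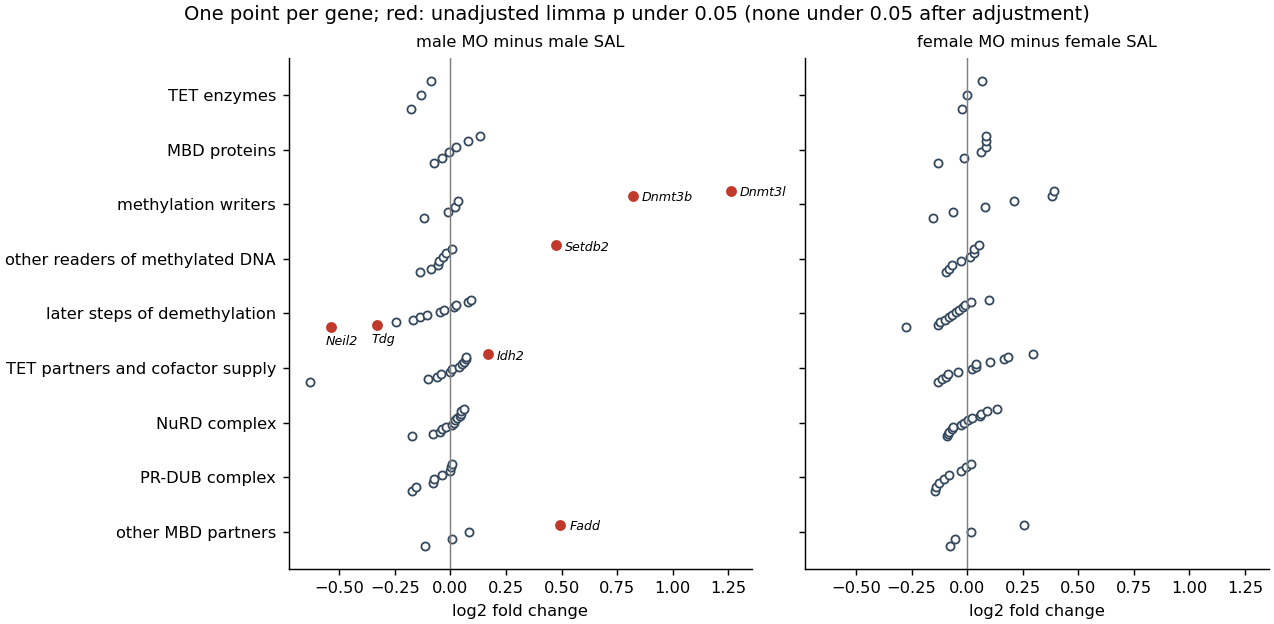
Log2 fold change of MO against SAL (x axis) in males (left) and females (right) for each tested gene of the members and of 7 lists (rows), with 1 point per gene and red for an unadjusted limma p under 0.05. The red points are all in males, where 0 genes had an adjusted p under 0.05.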

How the data were processed

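The deposited tables hold normalized counts per gene, a signal and not raw counts, which the authors made with STAR (mm10), Salmon and DESeq in the submitters' processing notes, in 1 table for males and another for females. Libraries were directional and polyA-selected, with reads aligned under a first-strand setting. Each column was matched to its library by title, and MO was compared with SAL on log2(value + 1) with limma 3.58.1 in R 4.3.3 (empirical Bayes with a trend), on genes with a summed value of 10 or more, with Benjamini-Hochberg adjustment. Fold changes on this scale understate those of low genes. The study's methods compared groups with DESeq2, which needs raw counts and was not used here. Permutation tests were 2-sided, exact over 924 relabellings within a sex, and over both sexes used 100000 draws within sex. P-values of correlations were added to what had been planned as description, and correlations, suffix differences and marker lists without PFC1, the share of genes called without PFC11 and a summed neuron list were chosen after seeing the data. Alternatives were other pseudocounts, filters, scalings, weights, no trend, a term for combined libraries and leaving out each library. Replicates are separate mice, so p-values measure the spread between them. The tests over both sexes and of the interaction took male and female littermates as independent. Members and lists were chosen with earlier results of these data known. All 9 members, the 2 genes most like each, and genes of the 7 role lists with an unadjusted limma p under 0.05 are named, with Dnmt1, Dnmt3a, Tdg, Ogt and Chd4. A further gene of this rule is not reported here. Positions and transcripts are from GENCODE vM21 and RefSeq (GRCm38.p6). Of the members, Tet1 and Mbd4 share under 0.4% of their 85-base stretches with other genes and the others none. The fit was tested on simulated data.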

Additional observations from a re-analysis of the deposited data

Results flagged for a closer look

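One value stood apart from the other libraries of its group. Mbd2 in the female MO library PFC1 was 672.4 normalized counts, and the other 5 female MO libraries had 461 to 535.9. The gap to its nearest neighbour was 0.646 of the range of the group, above the 95% critical value of Dixon's test for 6 samples. Of the 36 sets of gene and group, 1 was flagged, and chance flags about 1 in 20. PFC1 also had the highest sums of the oligodendrocyte lineage, astrocyte, microglia, endothelium, blood and striatum markers of all 24 libraries, and their part in this value was not tested.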

How the results depend on the processing

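No member had an adjusted p under 0.05 in limma under any alternative run, and the smallest was 0.643. No paired analysis was possible because the libraries carry unique numbers that no groups share. Scaling to Gapdh and Ppia moved the median of all genes by 0.09 in females and -0.11 in the interaction. It reversed Mbd1 in males (-0.00011), Tet3 (0.066) and Mbd4 (0.078) in females, Tet1 (0.022) and Mbd4 (0.0066) over both sexes and the Mbd2 interaction (-0.068). It left 290 genes at an unadjusted p under 0.05 in males, against 475, and 1 member over both sexes (Mbd3). Array weights reversed Mbd5 in males (0.022), Tet3 (0.018) and Mbd4 (0.057) in females, Tet1 (0.048), Mbd4 (0.011), Mbd5 (0.0029) and Mbd6 (-0.063) over both sexes and the Mbd3 interaction (0.011). A pseudocount of 5 reversed Tet2 in females (-0.00044). A term for combined libraries gave 2 members at an unadjusted p under 0.05 in males (Tet2, Mbd2) and 1 over both sexes (Mbd2), and a Mbd3 interaction of 0.0031. A mean of at least 10 left 233 genes in the interaction, against 364, with fewer genes tested. For the other changes the cause was not tested.

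Without each library in turn, the members at an unadjusted p under 0.05 numbered 0 to 3 in males (3 without PFC11, being Tet2, Tet3 and Mbd2) and 0 to 2 over both sexes (2 without PFC11 or without PFC8, being Mbd2 and Mbd3). The genes at that level numbered 375 (without PFC1) to 842 (without PFC8) in females, 602 (without PFC1) to 1326 (without PFC8) over both sexes and 309 (without PFC12) to 665 (without PFC21) in the interaction. In males the log2 fold change ran from -0.0085 to 0.060 for Mbd1, -0.10 to 0.013 for Mbd4, -0.034 to 0.026 for Mbd5 and -0.15 to 0.010 for Mbd6. In females it ran from -0.097 to 0.11 for Tet2, -0.074 to 0.065 for Tet3 and -0.085 to 0.037 for Mbd4. Over both sexes it ran from -0.043 to 0.030 for Tet1 and -0.027 to 0.063 for Mbd6. The interaction ran from -0.069 to 0.0012 for Mbd1, -0.042 to 0.039 for Mbd3 and -0.092 to 0.047 for Mbd4.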
